A study of Mus musculus with 6 samples.

Results

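The genes described here are 10 components of the insulin pathway and of cellular glucose uptake in mouse brown adipose tissue, chosen by name for their place in the pathway: Insr, Irs1, Irs2, Pik3r1, Akt1, Akt2, Foxo1, Tbc1d4, Slc2a1 and Slc2a4. They are 10 of the 45320 Ensembl gene identifiers in the deposited tables, and each matched 1 identifier. The tissue was whole brown fat of C57BL/6 mice that entered a calorie-rich diet, high in sugar and fat, at 4 weeks of age and ate it for 4 weeks before they were divided. The treated mice then ate the same diet with RO5508887, a compound that blocks the protease BACE1 (samples 17, 33 and 35), and the untreated mice went on with the diet alone (samples 13, 14 and 15). All mice of both groups were on the diet, so the comparison holds no lean control. The tables of treated 33 and 35 were the same in all 45320 values and were counted as 1 library, which leaves 2 treated and 3 untreated libraries. The drug's dose and duration and the sex of the mice are not given in the sources used here, nor is it said that each sample came from a separate animal. The p-values therefore rest on the spread among libraries alone, and that spread may be technical.

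Insulin binds a receptor tyrosine kinase, INSR, which phosphorylates the adaptor proteins IRS1 and IRS2. The adaptors recruit phosphatidylinositol 3-kinase, whose main regulatory subunit is encoded by Pik3r1, and its lipid product activates the kinases AKT1 and AKT2. AKT keeps the transcription factor FOXO1 out of the nucleus and inactivates TBC1D4, a brake on the traffic of vesicles that carry the insulin-responsive glucose transporter GLUT4 (Slc2a4) to the cell surface. GLUT1 (Slc2a1) is the transporter of basal uptake, present in many cell types. Brown fat is among the most insulin-responsive tissues for glucose uptake, and skeletal muscle uses the same pathway with GLUT4. Much of this regulation acts on proteins and their location, which transcript levels do not measure.

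Values are FPKM, fragments scaled to transcript length and to the mapped fragments of the library, so that genes of different length can be set beside each other within a library. The number of reads behind a value is unknown and no counting interval was given. Steps between low values gave a depth relative to untreated 13 of 1.01 for treated 17, 0.959 for treated 33/35, 0.811 for untreated 14 and 0.881 for untreated 15. Brown adipocyte markers were present in every library, with Ucp1, the uncoupling protein of brown fat, at 1119 and 1321 FPKM in the treated libraries, against 1837, 227 and 1912 FPKM in untreated 13, 14 and 15. The libraries also differed in skeletal muscle transcripts. The 28 muscle markers took 3.10% and 1.29% of all FPKM outside mitochondrial genes in treated 17 and treated 33/35, and 0.0304%, 7.37% and 0.0300% in untreated 13, 14 and 15. Of these markers, 27 reached 1 FPKM in treated 17, in treated 33/35 and in untreated 14, where Myh4 was listed at 0, against 12 in untreated 13 and 13 in untreated 15. The muscle creatine kinase Ckm was at 1262 and 531 FPKM in the treated libraries, against 2.25, 2733 and 1.46 FPKM in untreated 13, 14 and 15. In such bulk samples, fewer cells of a type and less RNA per cell cannot be told apart.

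All 10 genes were expressed in every library, and their mean levels spanned from 2.96 FPKM for Irs1 to 192 FPKM for Akt2. All 10 passed the filter on low values, a mean over libraries of 1 FPKM or more, and each also reached 1 FPKM in every library. By mean FPKM over the 5 libraries the order was Akt2 (192), Slc2a4 (165), Akt1 (38.2), Pik3r1 (35.2), Tbc1d4 (22.7), Insr (17.5), Foxo1 (10.8), Irs2 (6.91), Slc2a1 (4.27) and Irs1 (2.96). Akt2 and Slc2a4 ranked 435 and 509 among the 13527 genes tested, whereas Irs1 ranked 10769. The ranges of Slc2a4 and Akt1 did not overlap, nor did those of Insr and Foxo1, and every other pair of neighbours in this order overlapped in range across the libraries.

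**Figure D1:**
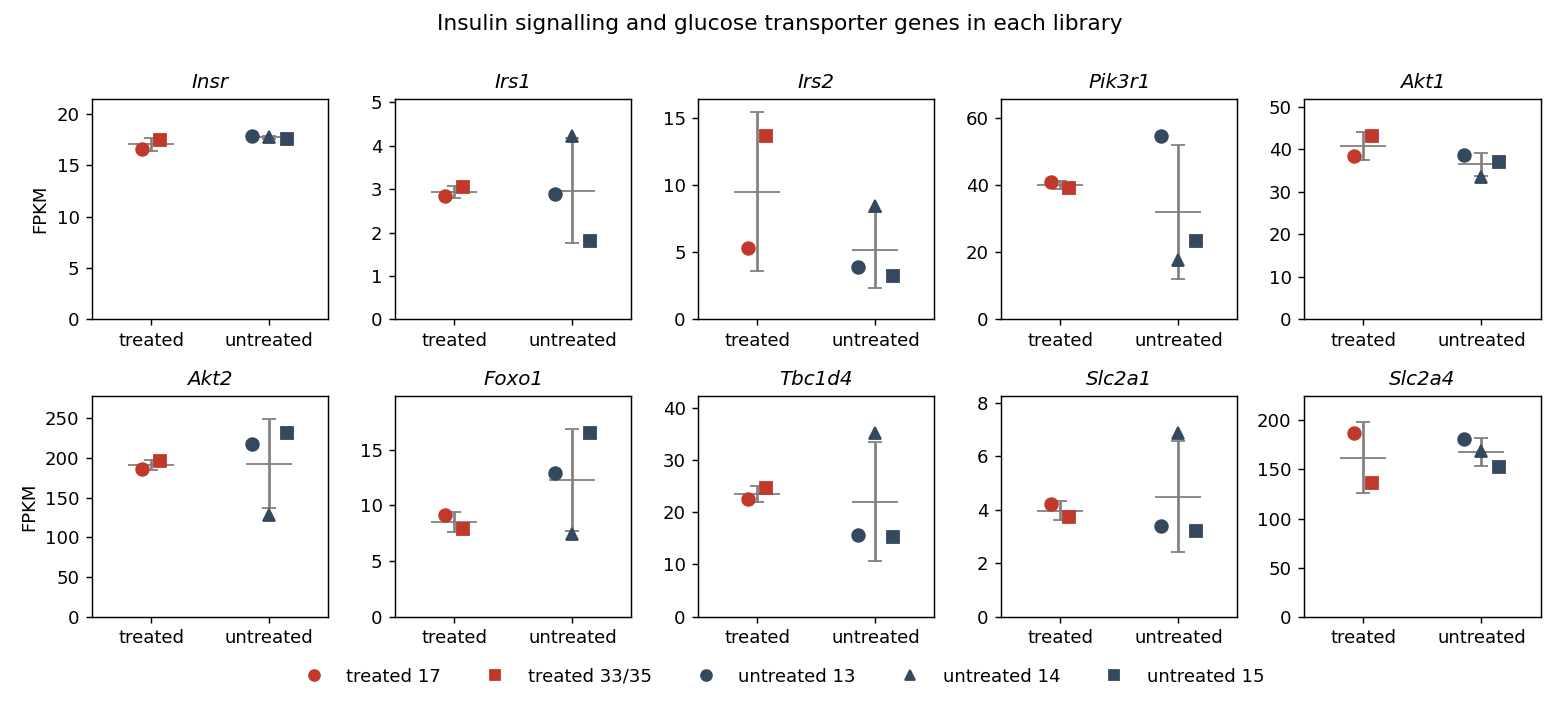
FPKM of the 10 genes in each library (linear axes from 0, a separate axis per gene). Points are libraries, with the 2 treated ones on the left in red, and grey bars show the group mean and SD. Insr lies between 16.6 and 17.9 FPKM in all 5 libraries, whereas Irs2 lies between 3.25 and 13.7 FPKM.

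With RO5508887, 0 of the 10 genes rose or fell past the threshold (limma over all 13527 genes, Benjamini-Hochberg adjusted p under 0.05), and 0 had an unadjusted p under 0.05, which 125 of all genes tested (0.924%) had. In the same test 4 of the 13527 genes rose, which is 0.0296%, and 2 fell, which is 0.0148%, together 0.0444% of all genes. By group means of log2 values, 6 of the 10 were higher and 4 lower with the drug (Akt2, among the 6, turned to -0.018 with median ratio scaling), and the median log2 fold change was 0.04, beside a median of 0.06 over all genes tested. For 1 of the 10, Insr, both treated values lay below all untreated values, a separation seen in 3.18% of all genes tested. None of the 10 lay above in both treated libraries, where 5.5% of all genes did, and 8.68% were separated in either direction. Fold changes here are differences of group means of log2(FPKM + 0.5), treated minus untreated. The added 0.5 makes changes of low genes look smaller than they are. Each of the 10 had an adjusted p of 1.00 in this limma fit.

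**Figure D2:**
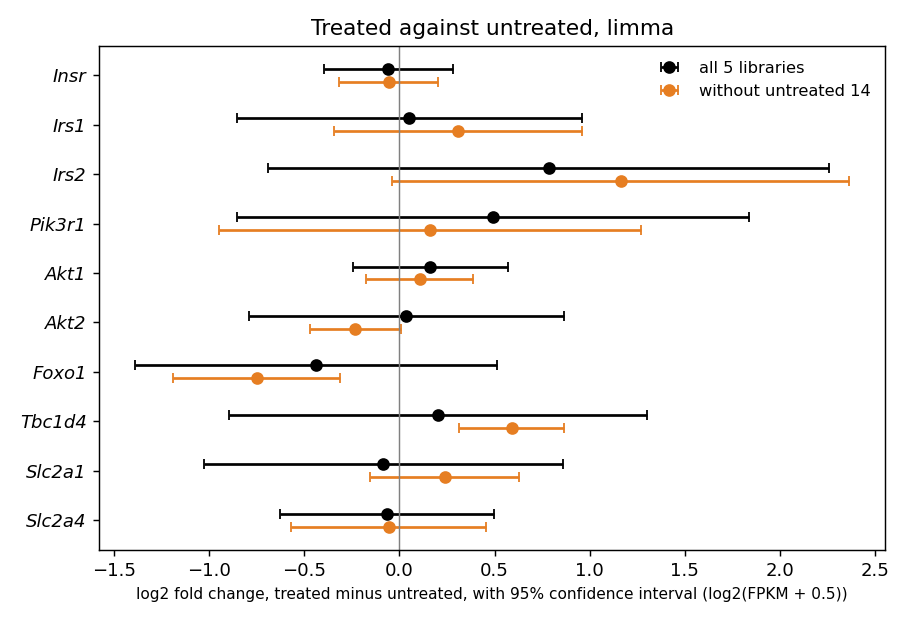
Log2 fold change of each gene, treated minus untreated, with its 95% confidence interval from limma, on the log2(FPKM + 0.5) scale. Black points use all 5 libraries and orange points leave out untreated 14. With all libraries every interval crosses 0, from Foxo1 at -0.44 to Irs2 at 0.78, and without untreated 14 those of Foxo1 and Tbc1d4 do not, in a fit where 1634 of 13368 genes (12.2%) had an unadjusted p under 0.05.

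Insr encodes the receptor (ENSMUSG00000005534, chromosome 8, 3122061 to 3279617, GRCm38, minus strand). It measured 16.6 and 17.5 FPKM in treated 17 and treated 33/35, and 17.9, 17.8 and 17.6 FPKM in untreated 13, 14 and 15. The groups did not overlap, but the gap between the highest treated and the lowest untreated library was small beside the treated spread. Group means were 17.0 ± 0.602 FPKM (SD, n = 2) with the drug and 17.7 ± 0.146 FPKM (SD, n = 3) without it. The log2 fold change was -0.06 (SE 0.13), with a 95% interval from -0.40 to 0.28. Insr was among the steadiest genes in these data. Its highest library was 1.08 times its lowest, and 0.582% of the 13232 tested genes with no 0 in any library had a smaller ratio, while the median gene had 1.69. Untreated 14, which had the most muscle transcripts, was 1.00 times the mean of untreated 13 and 15 for Insr.

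Irs1 and Irs2 encode the adaptors that carry the signal from the receptor, and Irs2 was the higher of the pair in all 5 libraries. Irs1 (ENSMUSG00000055980, chromosome 1, 82233101 to 82291416, minus strand) measured 2.85 and 3.04 FPKM in treated 17 and treated 33/35, and 2.88, 4.23 and 1.79 FPKM in untreated 13, 14 and 15. The treated values lay inside the untreated range. The treated mean was 2.94 ± 0.138 FPKM (SD, n = 2), against 2.97 ± 1.22 FPKM (SD, n = 3) in the untreated group, a log2 fold change of 0.05 (SE 0.35; 95% interval -0.85 to 0.96). On the opposite strand, Gm9747 (chromosome 1, 82233112 to 82235933) lies within the span of Irs1, with 7.96 and 7.67 FPKM in the treated libraries, against 7.79, 12.9 and 4.56 FPKM in untreated 13, 14 and 15. Without strand information, which the sources used here do not give, reads of these overlapping genes cannot be told apart, and the level of Irs1 is uncertain to that extent.

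Irs2 (ENSMUSG00000038894, chromosome 8, 10984681 to 11008458, minus strand) measured 5.32 and 13.7 FPKM in treated 17 and treated 33/35, and 3.89, 8.42 and 3.25 FPKM in untreated 13, 14 and 15. Treated 33/35 was the highest library and untreated 14 the next, so the groups overlapped. Group means were 9.50 ± 5.91 FPKM (SD, n = 2) with the drug and 5.19 ± 2.82 FPKM (SD, n = 3) without it, a log2 fold change of 0.78 (SE 0.56; 95% interval -0.69 to 2.26). It had the widest spread of the 10 genes, with the highest library at 4.21 times the lowest, and 89.5% of tested genes had a smaller ratio. Without treated 33/35 the log2 fold change was 0.14 (SE 0.61), and without treated 17 it was 1.43.

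The FPKM ratio of Irs1 to Irs2 was 0.535 and 0.222 in treated 17 and treated 33/35, and 0.740, 0.502 and 0.551 in untreated 13, 14 and 15. Irs1 was thus below Irs2 throughout, by the most in treated 33/35, and treated 17 lay inside the untreated range. The uncertainty in the level of Irs1 from its overlap with Gm9747 applies to this ratio and to its tests. Within libraries the mean log2 ratio was -0.96 ± 0.615 (SD, n = 5; exact sign-flip test, two-sided p = 0.0625, the smallest that 5 libraries can give; adjusted over the 2 gene pairs, 0.0625). Between the groups the log2 ratio was -1.40 ± 0.850 (SD, n = 2) in the treated and -0.67 ± 0.271 (SD, n = 3) in the untreated libraries. The difference of -0.73 did not pass an exact permutation test (two-sided p = 0.4, adjusted over the 2 ratios 0.8), in a design whose smallest p is 0.2. It was -0.13 without treated 33/35 and -1.33 without treated 17. Another adaptor gene, Irs3, which mice express in fat, was named after its values were seen. It measured 13.1 and 22.5 FPKM in treated 17 and treated 33/35, and 30.4, 5.52 and 17.0 FPKM in untreated 13, 14 and 15. Of the summed FPKM of the 3 adaptor genes, Irs3 made up 61.5% and 57.3% in the treated libraries, and 81.8%, 30.4% and 77.1% in untreated 13, 14 and 15. Irs3 was the most abundant of the 3 in every library but untreated 14, where Irs2 made up 46.3%.

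The promoters of Irs1 and Irs2 are shown because the expression of this pair differed in level and in spread. FOXO factors are known to bind insulin response sequences, and FOXO1 activates Irs2 in liver. Of the 10 genes, 8 had promoter windows in the RefSeq table on GRCm38.p6 (13 windows, each from 250 bases before to 50 after a RefSeq start). Insr and Slc2a4 had none and were not searched. Capitals mark an insulin response sequence, searched as CAAAACAA on both strands and found here as TTGTTTTG, and an E-box, CACGTG, which reads the same on both strands. The RefSeq start of Irs2 lies upstream of its start in GENCODE, at 11008458, which is outside the window. The GENCODE start of Irs1, at 82291416, is inside its window. Distances given here are from the RefSeq starts.
Irs1, chr1:82291390-82291689, minus strand: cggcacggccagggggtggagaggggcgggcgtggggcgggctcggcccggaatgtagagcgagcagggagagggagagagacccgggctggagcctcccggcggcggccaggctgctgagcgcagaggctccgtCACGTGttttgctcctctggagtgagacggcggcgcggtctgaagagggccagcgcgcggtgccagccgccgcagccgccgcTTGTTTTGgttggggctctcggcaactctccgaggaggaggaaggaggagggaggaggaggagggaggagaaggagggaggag
Irs2, chr8:11008880-11009179, minus strand: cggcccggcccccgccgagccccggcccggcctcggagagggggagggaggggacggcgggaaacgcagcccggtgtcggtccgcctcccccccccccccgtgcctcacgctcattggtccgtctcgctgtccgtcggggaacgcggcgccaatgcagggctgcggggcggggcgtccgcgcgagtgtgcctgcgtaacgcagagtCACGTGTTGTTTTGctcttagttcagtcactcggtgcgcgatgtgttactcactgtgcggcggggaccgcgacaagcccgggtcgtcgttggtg
In Irs2 the E-box, which begins 44 bases before the start, is directly followed by the insulin response sequence at 38 bases before it. In Irs1 they begin 115 and 33 bases before the start. Irs1 and Irs2 were the only members of the 8 whose windows held either motif, and both windows held both. A FOXO core motif, GTAAACA, was also searched on both strands and was found in the window of Akt1 alone among the 8, and in 3.65% of all windows. The GC box, GGGCGG, was found in 8 of the 13 windows, among them windows of all 8 genes, and in 35.7% of all windows. Of all 32851 windows, 2.51% held the insulin response sequence and 7.15% the E-box. These matches describe letters and not bound sites.

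**Figure D3:**
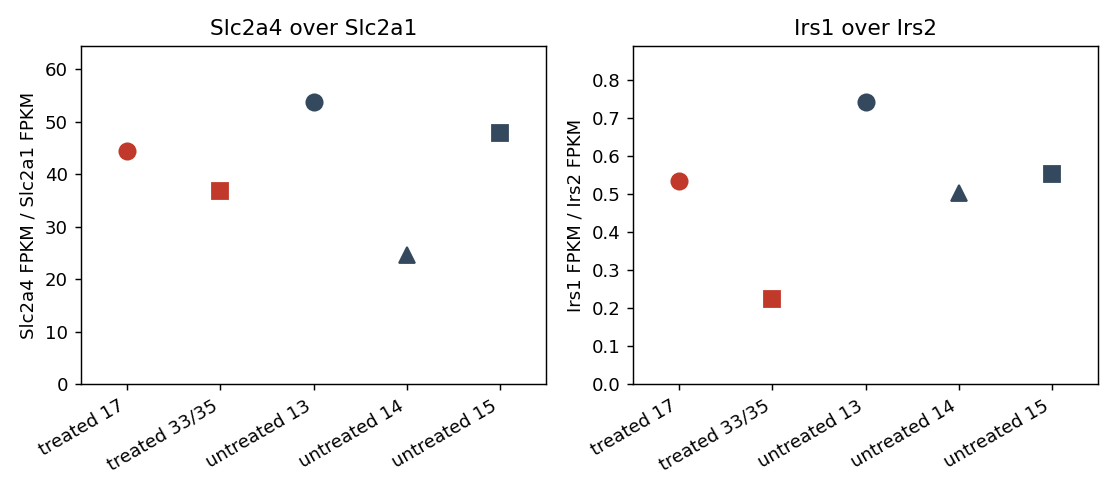
FPKM ratios of Slc2a4 to Slc2a1 (left) and of Irs1 to Irs2 (right) in each library, on linear axes from 0. Red symbols are treated and blue symbols untreated libraries. Untreated 14 has the lowest transporter ratio, 24.6, and treated 33/35 the lowest adaptor ratio, 0.222.

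Pik3r1 encodes the main regulatory subunit of phosphatidylinositol 3-kinase (ENSMUSG00000041417, chromosome 13, 101680563 to 101768217, minus strand). It measured 41.0 and 39.2 FPKM in treated 17 and treated 33/35, and 54.8, 17.7 and 23.3 FPKM in untreated 13, 14 and 15. The treated libraries were close to each other and fell between untreated 13 and the other two. The treated mean was 40.1 ± 1.21 FPKM (SD, n = 2), against 32.0 ± 19.99 FPKM (SD, n = 3) in the untreated group, a log2 fold change of 0.49 (SE 0.51; 95% interval -0.85 to 1.84). Untreated 13 was 2.35 times untreated 15, and 1.99% of the 13527 genes differed more between these libraries. Both had few muscle transcripts, and their endothelial markers summed to 329 and 327 FPKM. Their fibroblast markers summed to 597 and 227 FPKM, and their macrophage markers to 125 and 89.5 FPKM. The part of any cell type in the spread of Pik3r1 was not tested. Leaving untreated 14 out gave a log2 fold change of 0.16 (SE 0.42, adjusted p = 0.919 in limma), and leaving untreated 13 out gave 0.96 (SE 0.23, adjusted p = 1.00).

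Akt1 and Akt2 encode the kinases at the centre of the pathway, and Akt2 was the more abundant in all 5 libraries. Akt1 (ENSMUSG00000001729, chromosome 12, 112653821 to 112674884, minus strand) measured 38.5 and 43.2 FPKM in treated 17 and treated 33/35, and 38.8, 33.6 and 37.0 FPKM in untreated 13, 14 and 15. Its groups overlapped by the closeness of treated 17 to untreated 13. Group means were 40.9 ± 3.33 FPKM (SD, n = 2) with the drug and 36.5 ± 2.63 FPKM (SD, n = 3) without it. The log2 fold change of Akt1 was 0.16 (SE 0.16; 95% interval -0.25 to 0.57).

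Akt2 (ENSMUSG00000004056, chromosome 7, 27591552 to 27640826, plus strand), the isoform known for insulin's metabolic effects, measured 187 and 196 FPKM in treated 17 and treated 33/35, and 218, 128 and 232 FPKM in untreated 13, 14 and 15. Group means were 191 ± 6.69 FPKM (SD, n = 2) with the drug and 193 ± 56.1 FPKM (SD, n = 3) without it, a log2 fold change of 0.04 (SE 0.32; 95% interval -0.79 to 0.87). Its libraries stood in the reverse order of the muscle marker share, lowest in untreated 14, then treated 17, treated 33/35 and the remaining untreated libraries, and 10.8% of all genes tested had this order. Leaving untreated 14 out turned its log2 fold change to -0.23 (SE 0.09, adjusted p in limma = 0.421). Muscle content was entered in 1 alternative fit, with the mean log2 level of the muscle markers as a covariate, and there the log2 fold change was 0.39 (SE 0.08, adjusted p = 0.0470 in limma). That fit has 2 residual degrees of freedom and called 1467 of 13527 genes higher and 535 lower, so that Akt2 was among many genes called in it. In the same limma fit 34.5% of all genes had an unadjusted p under 0.05. The covariate was 9.78 in untreated 14, against 0.771 and 0.662 in untreated 13 and 15, so its untreated range rests on 1 library. The FPKM ratio of Akt2 to Akt1 was 4.85 and 4.54 in treated 17 and treated 33/35, and 5.61, 3.82 and 6.26 in untreated 13, 14 and 15.

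Foxo1, the transcription factor restrained by AKT (ENSMUSG00000044167, chromosome 3, 52268336 to 52353221, plus strand), had lower values with the drug than in untreated 13 and 15. It measured 9.13 and 7.90 FPKM in treated 17 and treated 33/35, and 13.0, 7.40 and 16.5 FPKM in untreated 13, 14 and 15. Untreated 14 was the lowest of all, so the groups overlapped. Group means were 8.51 ± 0.866 FPKM (SD, n = 2) in the treated and 12.3 ± 4.59 FPKM (SD, n = 3) in the untreated group, a log2 fold change of -0.44 (SE 0.36; 95% interval -1.39 to 0.51). Without untreated 14 it was -0.75 (SE 0.16, limma adjusted p = 0.193), without untreated 15 it was -0.20 (SE 0.33), and with the muscle covariate -0.04 (SE 0.19, limma adjusted p = 0.912). An antisense gene within the span of Foxo1, Gm20402, had 5.14 and 4.04 FPKM in the treated libraries, against 4.37, 4.39 and 8.93 FPKM in untreated 13, 14 and 15, and its reads cannot be separated from those of Foxo1 where they overlap.

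Tbc1d4 (ENSMUSG00000033083, chromosome 14, 101442360 to 101609191, minus strand), whose product AS160 holds GLUT4 vesicles back until AKT inactivates it, was highest in untreated 14. It measured 22.5 and 24.7 FPKM in treated 17 and treated 33/35, and 15.6, 35.2 and 15.3 FPKM in untreated 13, 14 and 15. The treated libraries fell between untreated 14 and the other two, which were nearly equal. Group means were 23.6 ± 1.52 FPKM (SD, n = 2) with the drug and 22.1 ± 11.4 FPKM (SD, n = 3) without it, a log2 fold change of 0.20 (SE 0.42; 95% interval -0.90 to 1.30). Leaving untreated 14 out gave 0.59 (SE 0.10, limma adjusted p = 0.120), leaving untreated 15 out gave 0.0029 (SE 0.46), and with the muscle covariate it turned to -0.30 (SE 0.14, limma adjusted p = 0.208).

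Slc2a4, the gene of the insulin-responsive transporter GLUT4 (ENSMUSG00000018566, chromosome 11, 69942539 to 69948188, minus strand), was among the most abundant of the 10 and varied little. It measured 187 and 136 FPKM in treated 17 and treated 33/35, and 181, 169 and 152 FPKM in untreated 13, 14 and 15. The treated libraries were the highest and the lowest of the 5, on either side of all untreated ones. Group means were 162 ± 36.2 FPKM (SD, n = 2) and 168 ± 14.3 FPKM (SD, n = 3) in the treated and untreated groups, a log2 fold change of -0.07 (SE 0.22; 95% interval -0.63 to 0.50) that turned to 0.16 without treated 33/35. Skeletal muscle also expresses Slc2a4, and the level of Slc2a4 in untreated 14 was 1.01 times the mean of untreated 13 and 15. The muscle marker share of untreated 14 was the highest, 7.37%, and its 10 adipocyte markers had the lowest sum, 4204 FPKM. For untreated 13 and 15 these sums were 8955 and 8479 FPKM. How much of the Slc2a4 level came from muscle and how much from adipocytes was not tested.

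Slc2a1, the gene of the basal transporter GLUT1 (ENSMUSG00000028645, chromosome 4, 119108711 to 119137983, plus strand), measured 4.21 and 3.71 FPKM in treated 17 and treated 33/35, and 3.37, 6.87 and 3.19 FPKM in untreated 13, 14 and 15. Untreated 14 was about double the libraries with few muscle transcripts, at 2.10 times their mean. Group means were 3.96 ± 0.356 FPKM (SD, n = 2) with the drug and 4.48 ± 2.08 FPKM (SD, n = 3) without it, a log2 fold change of -0.08 (SE 0.36; 95% interval -1.03 to 0.86). Slc2a1 was the only one of the 10 whose libraries stood in the order of the muscle marker share, an order shared by 12.9% of all genes tested. Leaving untreated 14 out turned its log2 fold change to 0.24 (SE 0.15, adjusted p in limma = 0.584), and with the muscle covariate -0.51 (SE 0.13, limma adjusted p = 0.0655).

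Slc2a4 exceeded Slc2a1 in every library. The FPKM ratio was 44.5 and 36.7 in treated 17 and treated 33/35, and 53.7, 24.6 and 47.8 in untreated 13, 14 and 15. The low ratio of untreated 14 came with its high Slc2a1 value, since its Slc2a4 value was near those of the other untreated libraries. On the log2 scale the ratio averaged 5.16 ± 0.402 (SD, n = 5; exact sign-flip test, two-sided p = 0.0625, the smallest possible here; adjusted over the 2 gene pairs, 0.0625). It was 5.17 ± 0.209 (SD, n = 2) in the treated and 5.15 ± 0.549 (SD, n = 3) in the untreated libraries. The difference of 0.02 had a p of 1 in the exact permutation test (two-sided, adjusted 1), and without untreated 14 it was -0.29.

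**Figure D4:**
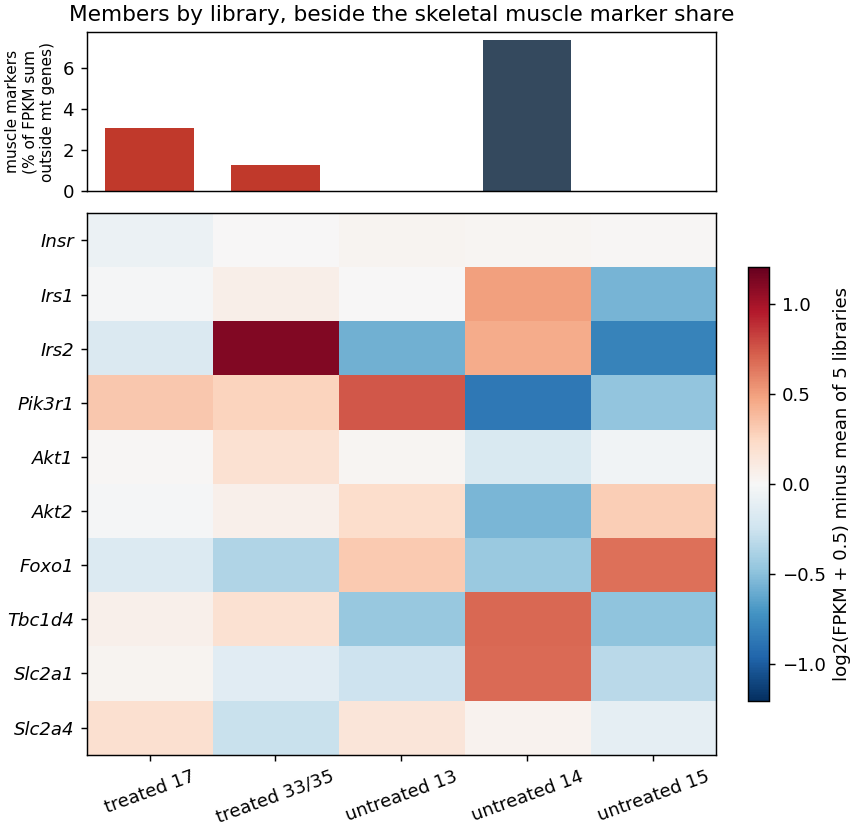
Below, log2(FPKM + 0.5) of each gene minus its mean over the 5 libraries, by library, with red above and blue below the mean. Above, the share of the FPKM sum outside mitochondrial genes taken by the 28 skeletal muscle markers, from 0.0300% in untreated 15 to 7.37% in untreated 14. Irs1, Tbc1d4 and Slc2a1 are highest, and Pik3r1, Akt1, Akt2 and Foxo1 lowest, in untreated 14.

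Untreated 14 was the highest library for 3 of the 10 genes (Irs1, Tbc1d4 and Slc2a1) and the lowest for 4 (Pik3r1, Akt1, Akt2 and Foxo1), where 33.5% of all genes tested were highest and 43.6% lowest in it. Both shares of the 10 genes were near these. When it was left out, 149 of 13368 genes rose (1.11%) and 9 fell (0.0673%), together 1.18%, and again 0 of the 10 passed. In that fit Irs2, Tbc1d4 and Slc2a1 were higher, and Insr, Akt2 and Foxo1 lower, in both treated libraries than in both untreated ones, where 24.5% of all genes were separated as higher and 21.1% as lower. Both untreated libraries that remain had low muscle marker shares and both treated ones higher shares, so the effects of drug and muscle RNA cannot be told apart in that fit.

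The genes with the most similar pattern over the 5 libraries were found by the smallest root mean square difference of centred log2(FPKM + 0.5) values. Only tested genes with a symbol were searched, without mitochondrial genes and bare clone or gene model names. Whether the closeness exceeds that of unrelated genes was not tested. For Slc2a1 they were G3bp1, Clasp1 and Ubtd1, at 0.0175, 0.0246 and 0.0265. G3bp1 had 15.6 and 13.6 FPKM in the treated libraries, against 12.9, 24.4 and 12.2 FPKM in untreated 13, 14 and 15. For Slc2a4 they were Unc13a, Alg3 and Tbx3os1, at 0.0476, 0.0533 and 0.0582, and for Irs1 they were Il13ra1, Rcn1 and Sdc1, at 0.0532, 0.0552 and 0.0573. Irs2 had no gene as close among those searched: Junos, Sik1 and Fbn1 were nearest, at 0.194, 0.195 and 0.252. Sik1 had 10.4 and 20.4 FPKM in treated 17 and treated 33/35, and 5.56, 11.1 and 5.95 FPKM in untreated 13, 14 and 15.

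None of the wider pathway lists held a gene past the threshold. Of 39 tested genes among 40 other insulin signalling components, 25 had higher and 14 lower means with the drug, 0 passed the limma test and 0 had an unadjusted p under 0.05. Their median log2 fold change was 0.06, the same to 2 decimals as over all genes tested. Of the 39, 1 was separated as higher and 3 as lower, where 5.5% and 3.18% of all genes tested were. Foxo3, a relative of Foxo1, and Pik3ca, a catalytic subunit of the kinase that Pik3r1 regulates, lay below all untreated values in both treated libraries, with log2 fold changes of -0.29 (SE 0.22) and -0.12 (SE 0.13). The most abundant of the list was Eif4ebp1, a translation repressor downstream of mTOR, with 168 and 166 FPKM in the treated libraries, against 215, 80.9 and 192 FPKM in untreated 13, 14 and 15.

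Of 16 brakes on insulin signalling, 14 were tested, among them Grb10 and Grb14, which the list above also holds. Here 10 had higher and 4 lower means with the drug, the median log2 fold change was 0.09, and 0 passed the limma test or an unadjusted p under 0.05. Trib1, a pseudokinase of the family that includes the AKT inhibitor TRIB3, measured 24.8 and 19.3 FPKM in the treated libraries, against 18.0, 10.7 and 12.4 FPKM in untreated 13, 14 and 15. Its groups did not overlap, with a treated minus untreated log2 difference of 0.69 (SE 0.28, adjusted p = 1.00 in limma). Inpp5k, an inositol polyphosphate 5-phosphatase, was also separated, with 0.12 (SE 0.13). Of the 14, 2 were separated as higher and 0 as lower, where 5.5% and 3.18% of all genes tested were. The most abundant brake was Grb14, an adaptor that inhibits the receptor, at 76.9 ± 11.04 FPKM (SD, n = 2) in the treated and 64.1 ± 6.44 FPKM (SD, n = 3) in the untreated group.

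All 16 genes of GLUT4 vesicle traffic were tested, with 10 higher and 6 lower means, a median log2 fold change of 0.03, and 0 past the limma test or an unadjusted p under 0.05. Vamp2, a fusion protein of these vesicles, measured 43.7 and 55.2 FPKM in the treated libraries, above the 39.3, 40.4 and 42.8 FPKM of untreated 13, 14 and 15. Stx4a, its partner at the plasma membrane, measured 40.7 and 41.5 FPKM, below the 42.2, 50.8 and 43.3 FPKM of the untreated libraries. Their log2 fold changes were 0.26 (SE 0.17) and -0.14 (SE 0.16). Of the 16, 1 was separated as higher and 1 as lower, where 5.5% and 3.18% of all genes tested were. Trarg1, a regulator of GLUT4 traffic in adipocytes, was the most abundant of the list, with 170 and 185 FPKM in the treated libraries, against 174, 75.4 and 218 FPKM in untreated 13, 14 and 15. Among 12 other transporters of glucose and related sugars, 4 passed the filter on low values (Slc2a3, Slc2a5, Slc2a8 and Slc2a12), 2 with higher and 2 with lower means, a median log2 fold change of -0.18 and 0 past the limma test or an unadjusted p under 0.05. The most abundant by the mean over all 5 libraries, Slc2a8, had 11.3 ± 0.182 FPKM (SD, n = 2) in the treated and 10.5 ± 1.83 FPKM (SD, n = 3) in the untreated group. Slc2a5 was above it in treated 17 and untreated 13. Slc2a4 stood above every other transporter listed in all 5 libraries.

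Genes that FOXO1 is known to activate in other tissues were split between higher and lower means. Of 15 listed, 13 were tested, 6 with higher and 7 with lower means, a median log2 fold change of -0.06 and 0 past the limma test or an unadjusted p under 0.05. The list contains Irs2 and Insr. Klf15 was lower in both treated libraries, with 14.7 and 8.82 FPKM against 20.1, 27.2 and 15.2 FPKM in untreated 13, 14 and 15, and a log2 fold change of -0.80 (SE 0.35). Of the 13, 2 were separated as lower (Klf15 and Insr) and 0 as higher, where 3.18% and 5.5% of all genes tested were. Pck1, the key enzyme of glyceroneogenesis in fat, was the most abundant, with 732 and 1070 FPKM in the treated libraries, against 878, 325 and 1218 FPKM in untreated 13, 14 and 15. Trim63, a ubiquitin ligase of muscle, had the largest ratio of highest to lowest library among the tested genes of the list. It measured 22.5 and 12.01 FPKM in the treated libraries, against 0.142, 100 and 0.0367 FPKM in untreated 13, 14 and 15, in the order of the muscle marker share. Of 9 genes that insulin is known to raise in other tissues, 8 were tested, 6 with higher and 2 with lower means, a median log2 fold change of 0.23 and 0 past the limma test or an unadjusted p under 0.05. For 7 of these 8 the lowest library was untreated 14, where 43.6% of all genes tested were lowest in it. Scd1, a fatty acid desaturase and the most abundant of them, had 2835 and 3220 FPKM in the treated libraries, against 3370, 1760 and 3628 FPKM in untreated 13, 14 and 15. Every other tested gene of this list was lower in treated 33/35 than in treated 17. All 10 adipocyte markers were also lowest in untreated 14. They summed to 7280 and 8307 FPKM in treated 17 and treated 33/35, against 8955, 4204 and 8479 FPKM in untreated 13, 14 and 15. The 9 genes of the insulin list summed to 5230 and 4404 FPKM in treated 17 and treated 33/35. In untreated 13, 14 and 15 they summed to 6257, 2303 and 6009 FPKM. Treated 33/35 was thus above treated 17 for the markers and below it for the list. The part of the adipocytes in the result was not tested.

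**Figure D5:**
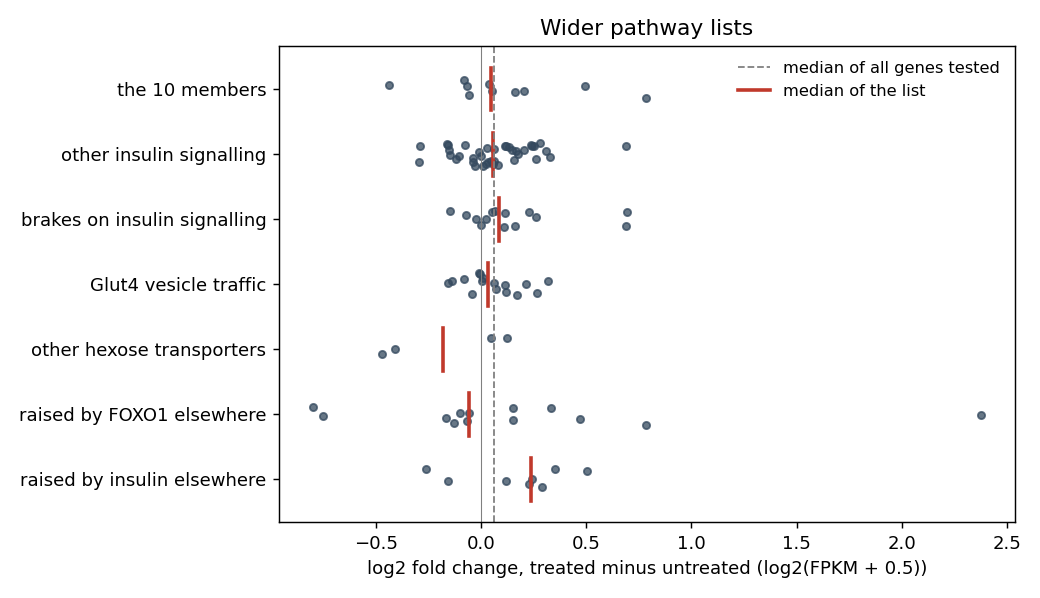
Log2 fold change of every tested gene of the 10 members and of the 6 wider lists, treated minus untreated, on the log2(FPKM + 0.5) scale. Points are genes, red bars list medians, and the dashed line the median of all genes tested, 0.06. List medians run from -0.18 for other hexose transporters (4 genes) to 0.23 for genes raised by insulin elsewhere (8 genes), and the point at 2.38 is Trim63.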

How the data were processed

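The authors deposited 1 table per sample with FPKM values for 45320 Ensembl genes, per the file headers. Per the labels' protocols, Trizol extraction was followed by an Illumina preparation from total RNA. The submitters' processing notes name CASAVA 1.7 and GRCm38, and the aligner, quantification program, annotation release and strandedness are not given in the sources used here. GENCODE M21 (GRCm38) supplied symbols and coordinates and matched 44481 identifiers, and RefSeq supplied promoter sequences. Identical tables were counted once.

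The 13527 genes averaging 1 FPKM or more were fitted as log2(FPKM + 0.5) with limma 3.58.1 in R 4.3.3 (moderated variance with a trend, two-sided, Benjamini-Hochberg over all genes, threshold 0.05), which was also tested on simulated data. Depth is unknown, since FPKM gave relative depth only. Gene pairs were compared with exact permutation tests over libraries (scipy 1.17.1, Python 3.11.15). The members, lists and tests were chosen with earlier results of these data known, and the promoter motifs after the values were seen. Of each wider list, up to 3 separated genes of smallest p and the most abundant gene were named, and 1 gene that this rule names is not reported here. Irs3, Trim63, Slc2a5, Slc2a12, Elovl6 and Myh4 fall outside this rule and were chosen after their values were seen. Alternatives covered the pseudocount, filter, variance trend, scaling, a muscle covariate, the identical tables and each library left out.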

Additional observations from a re-analysis of the deposited data

How the results depend on the processing

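The 10 genes were refitted under up to 14 alternatives each, 138 fits in all, of which 1 passed the threshold (Akt2 with the muscle covariate, above) and 7 changed sign. The changes of sign were Akt2 at -0.018 with median ratio scaling and -0.23 without untreated 14, Slc2a1 at 0.24 without untreated 14, Slc2a4 at 0.16 without treated 33/35, Irs1 at -0.22 without untreated 15 and -0.28 with the muscle covariate, and Tbc1d4 at -0.30 with that covariate. Leaving out each library in turn gave Irs1 -0.22 to 0.31, Akt2 -0.23 to 0.19, Slc2a1 -0.26 to 0.24, Slc2a4 -0.29 to 0.16, Irs2 0.14 to 1.43, Pik3r1 0.16 to 0.96, Foxo1 -0.75 to -0.20, Tbc1d4 0.0029 to 0.59, Akt1 0.08 to 0.24 and Insr -0.09 to -0.02 on the log2 scale. Irs1 and Slc2a1 could not be fitted with a filter at a mean of 5 FPKM, which they do not reach. Over all genes, the count that rose was 0 with a pseudocount of 0.1, 0 with no filter, 0 with the filter at 5 FPKM, 7 with the identical tables counted separately and 1467 with the muscle covariate. Unadjusted p under 0.05 was reached by 120, 522 and 58 genes with that pseudocount, no filter and that stricter filter. The count that fell was 0 with no filter, 1 with the filter at 5 FPKM and 535 with the covariate. Leaving out 1 library at a time gave 0 to 149 genes that rose and 0 to 9 that fell in limma, with 0 without each library other than untreated 14, where 118, 85, 112 and 107 genes had an unadjusted p under 0.05 without treated 17, treated 33/35, untreated 13 and untreated 15. That number was 1634 without untreated 14 and 4670 with the muscle covariate, against 125 as reported. A treated library left alone is assumed to vary like the other group. The difference in the Slc2a4 to Slc2a1 log2 ratio ranged from -0.29 (without untreated 14) to 0.22 (without untreated 13), was -0.13 without treated 17 and was -0.031 with identical tables counted separately (exact permutation p = 0.9). Counting them separately also gave exact p = 0.0312 for both pairs within libraries, at log2 ratios of 5.13 and -1.13, because it counts 1 library as 2. No paired analysis was possible because the groups share no replicate numbers. Unknown read numbers, 2 treated libraries and unequal content of muscle and other cell types limit every comparison. The 6 fibroblast markers, for one, summed to 456 and 711 FPKM in treated 17 and treated 33/35. In untreated 13, 14 and 15 the fibroblast markers summed to 597, 641 and 227 FPKM.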

Other observations

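Slc2a5, the fructose transporter, had a larger ratio of highest to lowest library than Slc2a1, Slc2a4 or the other transporters that passed the filter. It measured 12.5 and 1.21 FPKM in treated 17 and treated 33/35, and 21.2, 0.582 and 9.99 FPKM in untreated 13, 14 and 15, with -0.41 (SE 1.60) as the treated minus untreated log2 difference (adjusted p = 1.00 in limma). The high and low libraries fell in both groups. Slc2a12, another GLUT family transporter, measured 1.75 and 1.58 FPKM in the treated libraries, against 0.809, 4.78 and 0.827 FPKM in untreated 13, 14 and 15, in the order of the muscle marker share, whose part was not tested. Elovl6, a fatty acid elongase that insulin raises in liver, measured 83.2 and 40.6 FPKM in the treated libraries, against 118, 5.98 and 92.0 FPKM in untreated 13, 14 and 15. These genes were picked after their values were seen.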
